A study of Mus musculus with 24 samples.

Results

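Stellate cell and mesenchymal genes were followed across mouse liver organoid libraries. The 10 genes were Dcn, Lum, Des, Reln, Pdgfra, Pdgfrb, Rgs5, Acta2, Tagln and Vim, chosen by symbol, out of 16695 symbols listed in all 3 expression tables. They were chosen because their levels in 3 libraries of single organoid morphologies stood apart from the other libraries, so that contrast is described here and not tested. All 24 libraries came from adult wild-type BALB/c mice. Primary hepatocytes (Pri-Hep) were taken from the fraction left after Percoll centrifugation and removal of EpCAM-positive cells, and hepatocyte organoids (Hep-Orgs) were grown from that fraction in Matrigel, with DAPT and dexamethasone in the medium, to passage 1, 5 and 10 (P1, P5, P10). Cholangiocyte organoids (Cho-Orgs) were grown from EpCAM+ cells and taken at P0, at P5 and at P10. Each of these 7 groups held 3 bulk libraries. The other 3 libraries, 1 for each morphology, were made by Smart-Seq amplification from Hep-Orgs of grape-like, intermediate and round-like shape in the first culture in the hepatocyte medium. Amplification, medium and passage therefore all differ between these 3 libraries and the bulk Hep-Orgs, and their parts in any difference cannot be told apart.

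Hepatic stellate cells are the pericytes of the liver sinusoid. In the healthy liver they store vitamin A, and on injury they become myofibroblasts that lay down collagen and take on alpha smooth muscle actin. Platelet-derived growth factor (PDGF), acting through its receptors, is a classical growth signal for them, and decorin, reelin and desmin are used to mark them in rodents, while lumican and vimentin mark mesenchymal cells more widely. None of these proteins is a defining product of hepatocytes or of bile duct epithelium, although epithelial cells can begin to express vimentin in culture.

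Promoters of 300 bases, from 250 before to 50 after the start site, were available from RefSeq on GRCm38.p6 for 6 of the 10 genes, namely Des, Rgs5, Vim, Reln, Pdgfra and Acta2. Those of Dcn, Lum, Pdgfrb and Tagln were not used here. The 3 printed below are those of Vim and Pdgfra, whose levels kept a similar ratio between the morphologies, and of Reln, whose ratio was lower. They lie at chr2:13574061-13574360 on the plus strand, chr5:75152001-75152300 on the plus strand and chr5:22344656-22344955 on the minus strand, and each is written in the direction of its gene. Capitals mark a TATA box (TATAAA) or a GC box (GGGCGG), each searched on both strands.
Vim: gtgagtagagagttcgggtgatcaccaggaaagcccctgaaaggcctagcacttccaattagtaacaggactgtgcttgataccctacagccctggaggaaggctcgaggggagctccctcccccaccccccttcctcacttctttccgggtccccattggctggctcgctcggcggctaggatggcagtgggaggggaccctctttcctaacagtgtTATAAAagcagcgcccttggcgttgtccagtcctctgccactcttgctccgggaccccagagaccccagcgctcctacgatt
Pdgfra: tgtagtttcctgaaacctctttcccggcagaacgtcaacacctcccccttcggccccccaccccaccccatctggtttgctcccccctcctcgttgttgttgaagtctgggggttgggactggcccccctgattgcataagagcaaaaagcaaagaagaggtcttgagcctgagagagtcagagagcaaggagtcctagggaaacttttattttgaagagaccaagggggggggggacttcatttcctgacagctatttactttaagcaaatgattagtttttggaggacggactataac
Reln: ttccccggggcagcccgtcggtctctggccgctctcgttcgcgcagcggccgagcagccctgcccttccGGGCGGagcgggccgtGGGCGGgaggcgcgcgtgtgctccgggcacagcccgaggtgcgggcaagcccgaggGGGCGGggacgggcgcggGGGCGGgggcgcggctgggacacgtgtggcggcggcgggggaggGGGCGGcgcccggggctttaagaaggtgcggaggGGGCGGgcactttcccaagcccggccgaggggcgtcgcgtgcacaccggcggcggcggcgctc
The Vim promoter held 1 TATA box, whose first base lay 32 bases before the start site, and no GC box. The Reln promoter held 6 GC boxes and was 80.7% G and C, against 59.3% for Vim, 51% for Pdgfra and a median of 52.7% over all promoters. The Des promoter held 2 GC boxes, and no TATA box or GC box was found in those of Pdgfra, Rgs5 and Acta2. Among 32851 promoters of this length, 13.6% held a TATA box and 35.7% a GC box. The CArG box, bound by serum response factor, was found in none of the 6 windows and in 1.63% of all, and the E-box CACCTG in none of the 6 and in 20.2% of all. No matches overlapped in the 6 windows.

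The hepatocyte table held 14068906 to 27160365 fragments per library, and the totals estimated from the steps between low values ran from 37570000 to 40050000 for the cholangiocyte libraries and from 40040000 to 40400000 for the Smart-Seq libraries. The libraries labelled Pri-Hep went against their label. Their level of the albumin gene Alb was 106 to 121 FPKM (fragments scaled by gene length and library total) beside 229 to 241 FPKM of the bile duct keratin Krt19, and the median Spearman correlation between libraries was 0.996 both within the 4 groups of that table (12 pairs) and between them (54 pairs). The Hep-Orgs libraries shared this profile. Over all 12 libraries of the hepatocyte table, cholangiocyte markers summed to 3798 to 4018 FPKM and hepatocyte markers to 615 to 678 FPKM. The 3 tables were normalised separately. For some genes the hepatocyte table used longer lengths, 3.32 times the main transcript for Dcn, 2.16 times for Vim, 2.03 times for Reln and 1.47 times for Pdgfra. Against a value per main transcript, this lowers FPKM of these genes there by about that factor. The ratio was 1.11 to 1.25 for Rgs5, Des and Tagln, 1 for Lum and 1.01 for Pdgfrb. For Acta2 it was 0.875, a shorter length, which raises FPKM. FPKM is a level per length, so genes are compared within a library. Where 3 levels are given for the morphologies, they stand in the order grape-like, intermediate, round-like.

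The clearest pattern among the 10 genes was that Dcn, Lum, Vim and Pdgfra were plentiful in all 3 morphological libraries and scarce in the 21 bulk libraries. The lowest of the 3 morphological libraries exceeded the highest of the 21 bulk libraries by at least 2 in log2(FPKM + 1) for these 4 of the 10 genes, and for 1.32% of the 16695 symbols. The genes were picked on this contrast, so the count describes the choice. All 3 lay above every bulk library, by any margin, for 7 of the 10 genes (15.4% of all symbols). The plot of FPKM by library shows all values.

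**Figure D1:**
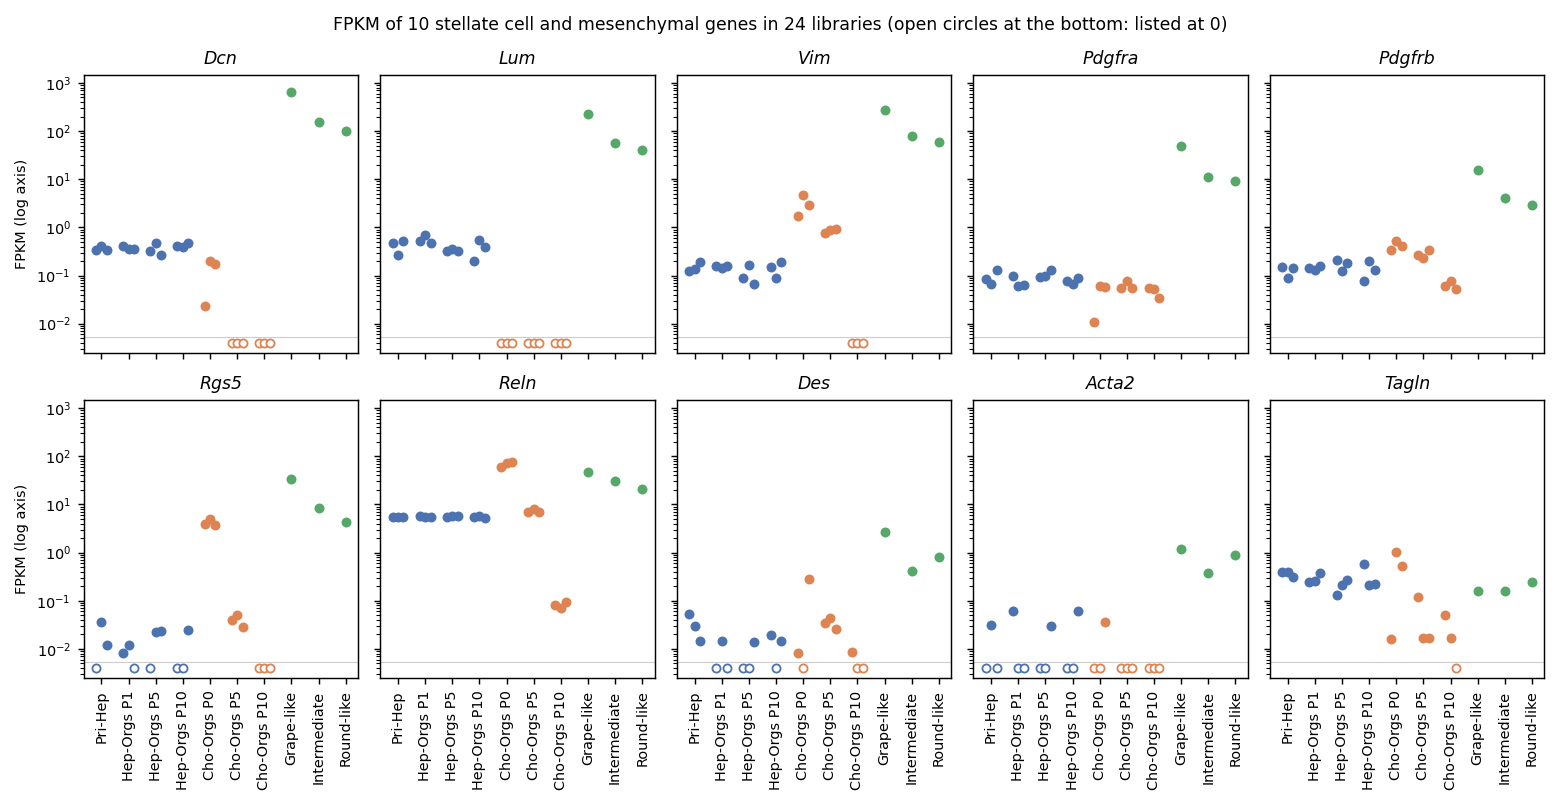
FPKM (log axis) of the 10 genes in 24 libraries, 1 point per library, by group, with libraries listed at 0 drawn as open circles at the bottom. The 3 morphological libraries lie above every bulk library for Dcn, Lum, Vim, Pdgfra, Pdgfrb, Des and Acta2, and Cho-Orgs P0 overlap or exceed them for Reln, Rgs5 and Tagln.

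Dcn (ENSMUSG00000019929, chr10:97479609-97518143, GRCm38, 8 exons) encodes decorin, a small leucine-rich proteoglycan that binds collagen fibrils. Its level was 658 FPKM in grape-like, 157 FPKM in intermediate and 102 FPKM in round-like Hep-Orgs. This made it the gene of rank 71 in the grape-like library and of rank 646 in the round-like library, out of 20729 listed. In the 12 libraries of the hepatocyte table the lowest, median and highest Dcn levels were 0.263, 0.382 and 0.476 FPKM, from 29 to 65 fragments. In Cho-Orgs P0 the 3 libraries held 0.0238, 0.202 and 0.170 FPKM, and all 6 Cho-Orgs libraries of P5 and P10 were at 0. The round-like library was thus 214-fold above the highest bulk library. This ratio is not corrected for gene length, which in the hepatocyte table was 3.32 times the main transcript.

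Lum (ENSMUSG00000036446, chr10:97565128-97572703), the neighbour of Dcn on chromosome 10, encodes lumican, another collagen-binding proteoglycan of the same family. It was at 223 FPKM in grape-like, 57.7 FPKM in intermediate and 40.2 FPKM in round-like Hep-Orgs. The hepatocyte table ranged from 0.204 to 0.685 FPKM, with a median of 0.427 FPKM. All 9 Cho-Orgs libraries were listed at 0, where 3 fragments would be at most 0.0326 FPKM. Lum and Dcn therefore shared their order over the morphologies. In Cho-Orgs, Lum was at 0 throughout, whereas Dcn was low but above 3 fragments in 2 of the 3 P0 libraries.

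Pdgfra (ENSMUSG00000029231, chr5:75152292-75198215) and Pdgfrb (ENSMUSG00000024620) encode the alpha and beta receptors for PDGF. Pdgfra was at 50.3 FPKM in grape-like, 11.2 FPKM in intermediate and 9.27 FPKM in round-like Hep-Orgs. In the bulk libraries it stayed between 0.0613 and 0.132 FPKM in the hepatocyte table and between 0.0109 and 0.0770 FPKM in Cho-Orgs. The receptor Pdgfrb was lower than Pdgfra in each morphological library, at 15.7, 4.14 and 2.93 FPKM in the same order. Its bulk levels were 0.0780 to 0.210 FPKM in the hepatocyte table. In Cho-Orgs Pdgfrb was at 0.345, 0.521 and 0.415 FPKM at P0, then 0.264, 0.228 and 0.346 FPKM (P5) and 0.0601, 0.0786 and 0.0524 FPKM (P10). The lowest morphological library was 5.63-fold above the highest bulk library for Pdgfrb and 70.2-fold for Pdgfra, and the P10 libraries of Cho-Orgs lay below all those of P0 and P5 for Pdgfrb.

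Rgs5 (ENSMUSG00000026678, chr1:169655501-169695813) encodes a regulator of G-protein signalling known from pericytes. It was at 34.5 FPKM in grape-like, 8.34 FPKM in intermediate and 4.36 FPKM in round-like Hep-Orgs. It was at 3 fragments or fewer in every library of the hepatocyte table. In Cho-Orgs P0 it was at 3.87, 4.89 and 3.73 FPKM, so 1 of these 3 libraries exceeded the round-like library. Without the 3 Cho-Orgs P0 libraries, Rgs5 joined the genes past the difference of 2, which made 5 of 10. Of all 16695 symbols, 298 then passed, against 220 with those libraries.

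The intermediate filament genes differed widely in level. Vim (ENSMUSG00000026728, chr2:13573927-13582826), encoding vimentin, was at 281 FPKM in grape-like, 78.7 FPKM in intermediate and 59.6 FPKM in round-like Hep-Orgs. The hepatocyte table held 0.0670 to 0.188 FPKM of Vim. In Cho-Orgs its levels were 1.75, 4.74 and 2.97 FPKM at P0, then 0.779, 0.872 and 0.911 FPKM at P5, and 0 in all 3 libraries of P10. Des (ENSMUSG00000026208, chr1:75360329-75368579), encoding desmin, the filament of muscle and rodent stellate cells, reached only 2.66, 0.412 and 0.826 FPKM in the 3 morphologies. It was at 3 fragments or fewer in each library of the hepatocyte table and at most 0.284 FPKM in Cho-Orgs. Vim thus ranked 192 in the grape-like library and Des 9927, and Des was lowest in the intermediate library and not in the round-like one.

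The contractile genes, like Des, were low in the morphological libraries. Acta2 (ENSMUSG00000035783, chr19:34241090-34255336), encoding alpha smooth muscle actin, was at 1.19, 0.385 and 0.885 FPKM in the 3 morphologies, from about 97, 32 and 72 fragments. It was at 3 fragments or fewer in all 21 bulk libraries. Tagln (ENSMUSG00000032085, chr9:45929619-45936058), encoding transgelin, an actin-binding protein of smooth muscle, was at 0.157, 0.156 and 0.250 FPKM in the same 3 libraries, from about 10, 10 and 16 fragments. Its bulk levels overlapped these, with 0.131 to 0.573 FPKM in the hepatocyte table and 0.0158, 1.03 and 0.533 FPKM in Cho-Orgs P0. Acta2 and Tagln therefore stood in the morphological libraries at levels far under those of Dcn, Lum and Vim, and Tagln did not separate them from the bulk libraries.

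Reln (ENSMUSG00000042453, chr5:21884454-22344702, 65 exons) encodes reelin, a large secreted glycoprotein known from neuronal migration and used as a stellate cell marker in liver. Its order was unlike that of the others. Cho-Orgs P0 had the highest levels, at 60.2, 72.8 and 74.5 FPKM, above the 46.4 FPKM of grape-like, 31.3 FPKM of intermediate and 20.7 FPKM of round-like Hep-Orgs. Cho-Orgs P5 followed at 7.01, 7.99 and 7.07 FPKM, then the 12 libraries of the hepatocyte table between 5.21 and 5.82 FPKM, and Cho-Orgs P10 at 0.0807, 0.0707 and 0.0935 FPKM. Per main transcript length the hepatocyte table would hold 10.6 to 11.8 FPKM of Reln, above Cho-Orgs P5, so the order of these neighbours depends on the gene length used. Reln was the only one of the 10 genes above 1 FPKM as given in any library of the hepatocyte table, although Dcn would reach 1.58 FPKM per main transcript length.

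The comparison between morphologies asks whether organoid shape goes with these genes. It has 1 library per group and no replicate check, so ratios are given with 95% intervals that cover counting error only and rest on approximate totals. Grape-like over round-like, the ratio was 6.46 (interval 6.30 to 6.62) for Dcn, 5.56 (5.37 to 5.75) for Lum and 5.43 (5.20 to 5.66) for Pdgfra. It was 5.36 (4.93 to 5.84) for Pdgfrb, 4.71 (4.57 to 4.85) for Vim and 7.93 (7.34 to 8.57) for Rgs5. These 6 genes of the matrix, the receptors, the filament and the pericyte regulator were thus each several-fold higher in the grape-like library. The ratio for Reln was 2.24 (2.18 to 2.29), below the intervals of those 6. Des had a ratio of 3.22 (2.57 to 4.02), and the intervals of Acta2 (0.992 to 1.82) and Tagln (0.286 to 1.38) included no difference.

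By the fold rule of 1 in log2(FPKM + 1), 8 of the 10 genes were higher in the grape-like library than in the round-like one and none was lower, while among all 12595 genes with at least 1 FPKM in some morphological library 12.9% were higher and 8.82% lower. The values of these 3 libraries entered the choice of the 10 genes, so the counts and medians given here are a description and no support. Des passed narrowly, at 1.00. The order grape-like over intermediate over round-like held for 7 of the 9 members at 1 FPKM or more in some morphological library, and for 20.3% of all such genes. The median difference of the 9 members at 1 FPKM or more was 2.22, against -0.13 over all 12595 genes. Des and Acta2 reached 1 FPKM in the grape-like library alone, so their place among the 9 already favours that direction. Against the intermediate library 7 of the 10 were higher in the grape-like one, with 9.71% of all genes higher and 7.15% lower. For Dcn, Lum, Vim, Pdgfra, Pdgfrb and Rgs5 this ratio lay between 3.57 and 4.48, and for Reln it was 1.48. Intermediate and round-like libraries differed less. None of the 10 genes passed the fold rule there (all genes, 3.85% higher and 2.54% lower), although Rgs5 was 1.92-fold (1.75 to 2.10), Dcn 1.54-fold and Reln 1.51-fold higher in the intermediate library, and Acta2 and Des were at 0.435 and 0.499 of the round-like level.

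**Figure D2:**
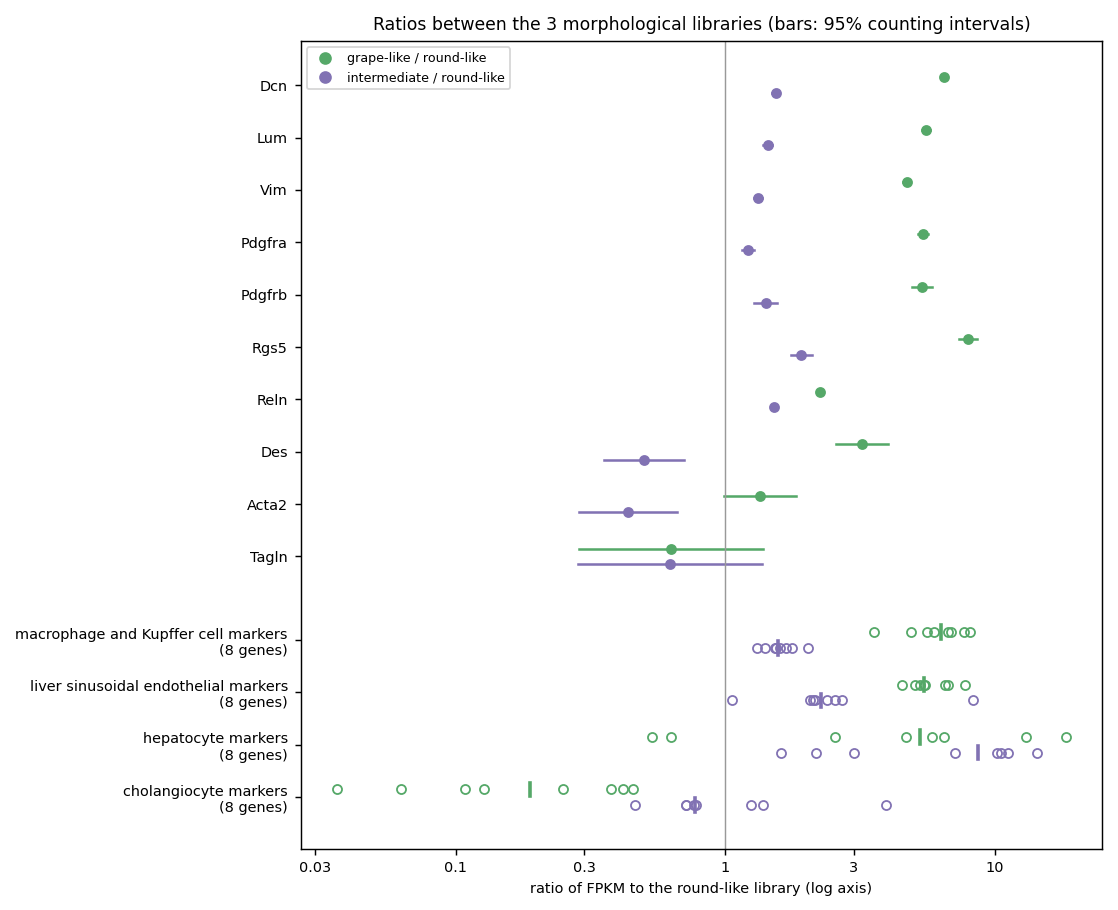
Ratio of FPKM to the round-like library (log axis) for grape-like (green) and intermediate (purple) Hep-Orgs, with 95% counting intervals for the 10 genes and, below, 1 open circle per gene and a bar at the median for 4 lists of cell type markers. Dcn, Lum, Vim, Pdgfra, Pdgfrb and Rgs5 lie between 4.71 and 7.93 in green, within the span of the macrophage markers (3.55 to 8.11), while the cholangiocyte markers lie under 1. The hepatocyte markers span 0.534 to 18.3 in green.

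Markers of some other cell types moved in the same order as these genes, and their part in the differences was not tested. Of all 12595 genes with at least 1 FPKM in some morphological library, 12.9% were higher and 8.82% lower in the grape-like than in the round-like library. All 8 macrophage and Kupffer cell markers were higher in the grape-like than in the round-like library by the fold rule, with ratios of 3.55 to 8.11, and their summed level was 8787, 2560 and 1377 FPKM in the 3 morphologies against 7.34 to 9.86 FPKM in the hepatocyte table. Lyz2, encoding lysozyme, was at 5942, 1792 and 887 FPKM, and C1qa, a complement subunit made by macrophages, at 771, 172 and 112 FPKM. C1qa was at 0 in the 12 libraries of the hepatocyte table and in Cho-Orgs P5 and P10. Of the 8 sinusoidal endothelial markers 7 were higher by the fold rule, 1 of the 8 having reached 1 FPKM in the grape-like library alone, with a summed level of 131, 54.6 and 23.9 FPKM against at most 0.439 FPKM in the hepatocyte table and 0.778 FPKM in Cho-Orgs. The receptors Fcgr2b (58.6, 23.9 and 11.1 FPKM) and Stab2 (18.6, 6.80 and 2.85 FPKM) led that list. Among the blood cell markers, the pan-leukocyte gene Ptprc was at 28.8, 7.72 and 5.19 FPKM and the neutrophil gene S100a8 at 3.57, 3.03 and 0 FPKM. Of the red cell genes, Hbb-bs was at 0 in all 3 morphologies. Hba-a1 was at 0.357, 0 and 0 FPKM, from about 10 fragments in the grape-like library. In the opposite direction, 7 of 8 cholangiocyte markers were lower in the grape-like library, with a summed level of 877 FPKM against 3454 and 2834 FPKM, and their secreted phosphoprotein Spp1 was at 796, 2899 and 2107 FPKM and the adhesion molecule Epcam at 29.7, 197 and 275 FPKM. Hepatocyte markers summed to 6523, 12395 and 1691 FPKM in the 3 morphologies, with Alb at 3649, 5729 and 565 FPKM and the plasma protein gene Hp at 782, 2191 and 307 FPKM, so the order of their sums differed from that of the 10 genes. Of these 8 markers, 5 were nonetheless higher in the grape-like than in the round-like library by the fold rule and none lower. Their median ratio was 5.27 (0.534 to 18.3), and 1 of the 8 reached 1 FPKM in the grape-like library alone. Whether a library held more cells of a type or more RNA per cell cannot be told apart in such bulk extracts.

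Further genes of stellate cells and their matrix were read in the same libraries. Of 12 quiescent stellate cell genes 10 reached 1 FPKM in a morphological library, and 9 of these were higher in the grape-like than in the round-like one and none lower, with a median ratio of 4.31. For this list and those below, the shares over all 12595 genes were 12.9% higher and 8.82% lower. The lists were chosen with earlier results of these data known, so their counts are a description and no support. Ecm1, an extracellular matrix protein, was at 71.0, 22.4 and 16.6 FPKM in the 3 morphologies, and the Wnt agonist Rspo3 at 56.9, 9.85 and 9.07 FPKM. Rspo3 was at most 0.0333 FPKM in the hepatocyte table and at most 0.0419 FPKM in Cho-Orgs, whereas Ecm1 had a mean of 55.6 FPKM ± 1.61 (SD, n = 3) in Cho-Orgs P5. Rspo3 was therefore near 0 in all bulk libraries, whereas Ecm1 was also expressed in epithelial cultures.

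Of 12 matrix genes of activated stellate cells, all reached 1 FPKM. Of these, 11 were higher in the grape-like than in the round-like library and none lower (all genes, 12.9% higher and 8.82% lower), with a median ratio of 3.96. Of these 12, 2 reached 1 FPKM in the grape-like library alone, which already favours that direction. The fibrillar collagen gene Col3a1 was at 502, 120 and 140 FPKM in the 3 morphologies and at most 0.131 FPKM in any Cho-Orgs P0 library. The matricellular gene Sparc followed at 425, 121 and 104 FPKM. Fibronectin (Fn1) was at 363, 171 and 82.5 FPKM, beside 78.3 to 81.8 FPKM in the 12 libraries of the hepatocyte table and 102 to 165 FPKM in Cho-Orgs P0, so the P0 libraries of Cho-Orgs lay above the round-like library. Of the small leucine-rich proteoglycans other than Dcn and Lum, 4 reached 1 FPKM, of which 2 did so in the grape-like library alone, so their being higher there was fixed by the filter. The other 2, which were above 1 FPKM in all 3 morphologies, were also higher in the grape-like library, with biglycan (Bgn) at 463, 147 and 96.7 FPKM and Prelp at 32.8, 9.67 and 5.59 FPKM.

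Smooth muscle genes were sparse in the morphological libraries, as Acta2 and Tagln were. Only 5 of 12 pericyte and smooth muscle genes reached 1 FPKM, of which 2 were higher and 1 lower in the grape-like than in the round-like library. The lower one was Myl9, a regulatory myosin light chain, at 7.25, 0.967 and 32.3 FPKM in the 3 morphologies. The adhesion molecule Mcam was at 3.06, 5.59 and 5.07 FPKM. Chosen after their values were seen, the smooth muscle myosin Myh11 was at most 0.210 FPKM and the smooth muscle actin Actg2 was at 0 in all 3 libraries. The 2 higher genes, Kcnj8 (8.51, 2.86 and 1.51 FPKM) and Abcc9 (5.72, 1.72 and 0.832 FPKM), encode subunits of the potassium channel of pericytes and are named after their values were seen. Actin-binding genes of general use summed to 825, 847 and 914 FPKM, and 2 of 10 were higher and none lower. They were led by Myl6 (400, 448 and 436 FPKM) and Tagln2 (176, 198 and 291 FPKM).

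Of 10 mesenchymal transcription factors 7 reached 1 FPKM and all 7 were higher in the grape-like than in the round-like library (all genes, 12.9% higher). Tcf21, a factor of stellate cells and other mesenchyme, was at 20.7, 6.69 and 2.93 FPKM in the 3 morphologies and at 0 in all 9 Cho-Orgs libraries. Zeb2 was at 19.1, 4.42 and 4.46 FPKM and at most 0.00835 FPKM in the hepatocyte table. The list summed to 83.2, 24.8 and 19.0 FPKM against 0.216 to 0.467 FPKM in the hepatocyte table. Portal fibroblast and mesothelial genes were mixed, with 5 higher and 3 lower of 8 that reached 1 FPKM, of which 1 reached it in the grape-like library alone. Wt1, a mesothelial and mesenchymal factor, was at 18.0, 3.21 and 1.91 FPKM, whereas Entpd2, an ectonucleotidase, was at 6.55, 18.3 and 19.3 FPKM. Of the 3 lower genes, those other than Entpd2 reached 1 FPKM in the round-like library alone, so their direction was fixed by the filter.

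The PDGF ligands, whose receptors are among the 10 genes, followed another order. None of the 4 was higher in the grape-like than in the round-like library by the fold rule and 1 was lower. Pdgfc was at 20.6, 13.6 and 14.7 FPKM in the 3 morphologies and had a mean of 43.9 FPKM ± 1.08 (SD, n = 12) in the hepatocyte table. Pdgfd was at 1.19, 3.15 and 4.33 FPKM, and at 30.9 FPKM ± 0.899 (SD, n = 12) in the hepatocyte table. The 4 ligands summed to 77.6 to 85.3 FPKM in the hepatocyte table, where Pdgfra and Pdgfrb were each under 0.21 FPKM. The map of summed levels sets all lists side by side.

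**Figure D3:**
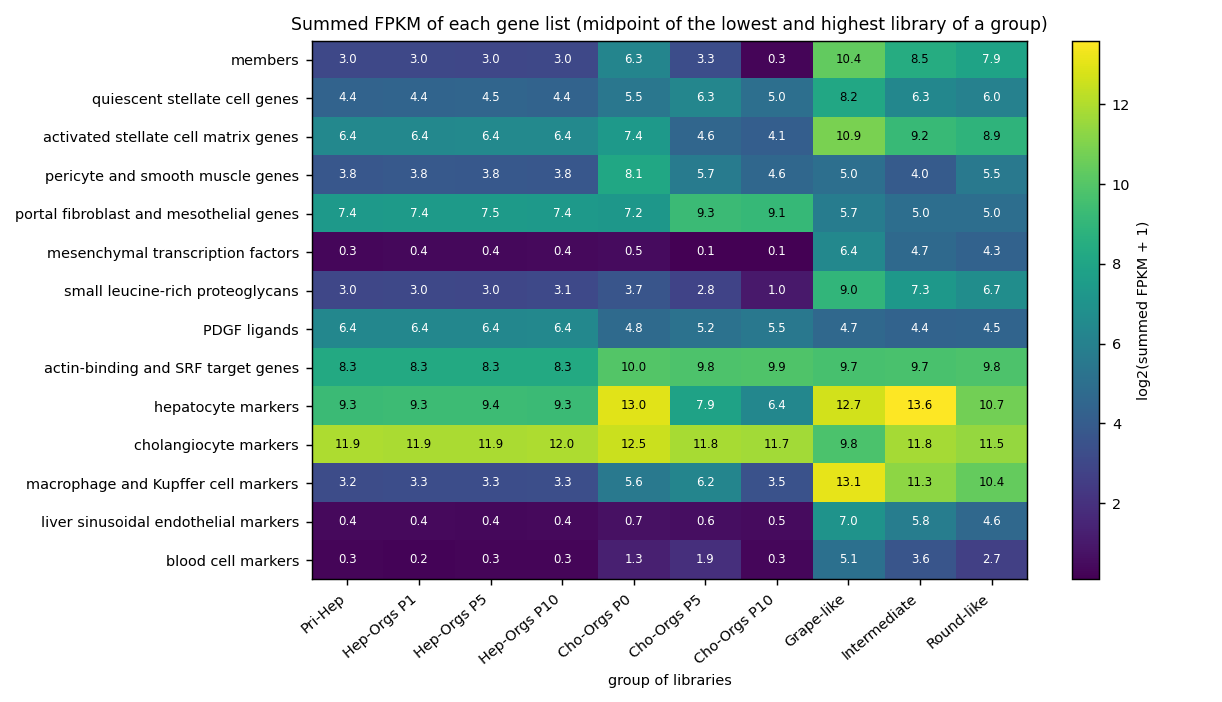
Summed FPKM of the 10 genes (top row) and of 13 further gene lists by group, as log2(summed FPKM + 1), where each cell is the midpoint of the lowest and the highest library of a group. The 10 genes, the transcription factors, the proteoglycans, the macrophage markers and the endothelial markers are all highest in the grape-like column, and the PDGF ligands are highest in the Pri-Hep and passaged Hep-Orgs columns.

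Over the passages of Cho-Orgs, the question is how these genes change as EpCAM+ cells are kept in culture. Reln fell at each step, Rgs5 fell between P0 and P5, and Vim fell at each step. Reln dropped from a mean of 69.2 FPKM at P0 to 7.36 FPKM by P5 and to 0.0816 FPKM by P10, which is 9.41-fold to P5 and 848-fold to P10. Rgs5 dropped from 4.16 FPKM to 0.0399 FPKM, or 104-fold, at P5, from 4 to 8 fragments per library, and was at 0 in all 3 libraries at P10, at least 214-fold lower than at P0 against a floor of 3 fragments per library. Vim dropped 3.69-fold from 3.15 FPKM to 0.854 FPKM at P5 and was at 0 in all 3 libraries at P10, at least 86.6-fold lower than at P0 against the same floor. For all 3 genes the libraries of P0 lay above those of P5.

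The test was limma on log2(FPKM + 1) over 11593 genes with at least 1 FPKM in at least 3 libraries, with Benjamini-Hochberg adjustment. From P0 to P5, Reln fell by 3.07 (SE 0.0835, adjusted p 7.37e-09), Rgs5 by 2.30 (SE 0.0907, adjusted p 6.73e-08) and Vim by 1.10 (SE 0.208, adjusted p 0.00147) on the log2(FPKM + 1) scale, which understates the change of low genes. From P5 to P10, Reln fell by 2.95 (limma adjusted p 1.78e-08) and Vim by 0.89 (adjusted p 0.00432), while the Rgs5 difference of -0.06 did not pass (adjusted p 0.613). From P0 to P10 the changes were -6.01 for Reln, -2.36 for Rgs5 and -1.99 for Vim (limma adjusted p 3.40e-11, 1.83e-08 and 1.48e-05). The other 7 genes were under the filter, and Rgs5 and Vim passed it only through the P0 libraries, so they could hardly do other than fall and their calls are no support beyond the values. The 3, 2 and 3 members called stand beside 56.6%, 61.5% and 72.3% of all genes tested that were called in either direction. Of all genes tested, 22.6%, 30.5% and 31.3% fell and 34%, 31% and 41% rose. Without replicate 3, Vim from P5 to P10 no longer passed (limma adjusted p 0.0683).

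**Figure D4:**
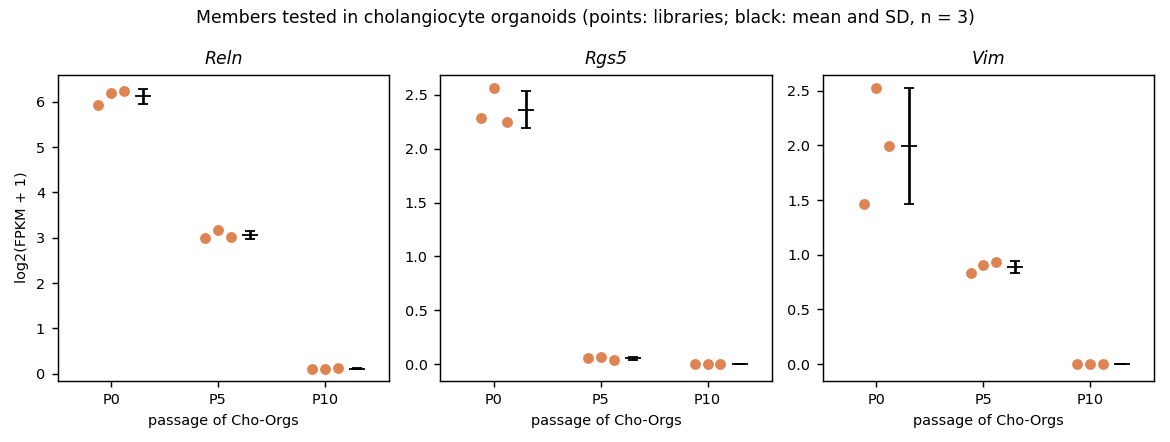
log2(FPKM + 1) of Reln, Rgs5 and Vim by passage of Cho-Orgs (P0, P5, P10), 1 point per library and, in black, the mean and SD of 3 libraries. Reln stands near 6 at P0, near 3 at P5 and near 0 at P10, Rgs5 is near 0 from P5 on, and Vim spreads most at P0.

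The decline of Reln, Rgs5 and Vim went along with that of hepatocyte markers and of some markers of other cells, whose part was not tested. Hepatocyte markers summed to 7728 to 8559 FPKM in Cho-Orgs P0, then 210 to 257 FPKM (P5) and 77.9 to 83.6 FPKM (P10). From P0 to P5, 7 of the 8 fell (limma, beside 22.6% of all genes tested), 1 of the 8 having reached 1 FPKM at P0 alone. Alb went from 4994 FPKM ± 406 to 79.5 FPKM ± 12.4 and 0.584 FPKM ± 0.0579 (SD, n = 3). The macrophage gene Lyz2 was at 9.63 to 15.8 FPKM at P0 and at 0 in all 6 libraries of P5 and P10. The macrophage list as a whole did not follow, at 43.1 to 48.8, 72.1 to 77.3 and 10.1 to 10.5 FPKM, since Cd68 rose to 74.5 FPKM ± 2.59 (SD, n = 3) at P5. The sinusoidal endothelial list stayed between 0.253 and 0.778 FPKM in all Cho-Orgs. Cholangiocyte markers were mixed, with 3 of 8 higher and 4 lower at P10 than at P0 (limma, beside 41% and 31.3% of all genes tested). The keratins Krt7 and Krt19 and the claudin Cldn4 rose, by 1.89, 0.43 and 0.80 (limma adjusted p 5.57e-09, 0.000103 and 9.82e-05), whereas Spp1 fell by 2.78 (adjusted p 4.66e-08). Their sum of 5099 to 6522 FPKM at P0 and 3345 to 3375 FPKM at P10 followed Spp1, which went from a mean of 3682 FPKM to 527 FPKM. Lum and Tcf21 were at 0 in all 9 libraries.

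Other genes of the lists moved with Reln, Rgs5 and Vim in part. Of 5 matrix genes tested, 4 fell and 1 rose from P0 to P5, beside 22.6% and 34% of all genes tested. Fn1 fell by 3.16 (limma adjusted p 3.92e-07). Sparc reached 1 FPKM only at P0, with a mean of 7.26 FPKM ± 6.72 (SD, n = 3) there and at most 0.581 FPKM at P5, and tenascin C (Tnc) only at P10, with at most 0.134 FPKM at P0, 0.820 to 0.911 FPKM at P5 and 3.62 FPKM ± 0.245 (SD, n = 3) at P10. The filter let these 2 genes in only through the passage where they are high, so the fall of Sparc and the rise of Tnc are given as values and their calls are no support. Pericyte and smooth muscle genes were mixed, with 2 of 4 tested higher and 1 lower at P10 than at P0 (all genes, 41% higher and 31.3% lower) and a median of 0.18. The smooth muscle cytoskeletal gene Smtn rose by 1.89 (limma adjusted p 2.53e-08) and the Notch receptor gene Notch3 by 0.40 (adjusted p 8.43e-05). Myl9 was at 255 FPKM ± 70.1 (SD, n = 3) in Cho-Orgs P0 and 0.816 FPKM ± 0.0548 (SD, n = 3) in P10, and fell by 7.11 from P0 to P10 (limma adjusted p 9.96e-10). Of the 4 PDGF ligands, all tested, 3 rose from P0 to P5 and none fell (all genes, 34% higher and 22.6% lower). The call for Pdgfb was lost with median-ratio size factors, without any 1 of the replicate numbers and under 2 other alternatives (limma adjusted p 0.0501 to 0.0793). None of the mesenchymal transcription factors reached the filter.

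The genes whose levels over the 9 Cho-Orgs libraries were most like each of the 3 tested members were found by the Pearson correlation of log2(FPKM + 1), given as a description since all 9 libraries share the order of passages. For Reln they were Alb (r = 0.9992), Ppt1 (r = 0.9992) and Apoe (r = 0.9986), and for Rgs5 they were Fabp4 (r = 0.9994), Ttpa (r = 0.9993) and Cdh2 (r = 0.9993). For Vim they were Inhbb (r = 0.9981), Rragd (r = 0.9962) and Adhfe1 (r = 0.9927). Of the genes most like Rgs5, Fabp4 went from 5.20 FPKM on average at P0 to 0 at P5 and P10. Ttpa went from 2.38 FPKM to 0.0516 FPKM and 0.0182 FPKM, and Cdh2 from 4.69 FPKM to 0.0641 FPKM and 0.000893 FPKM.

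In the hepatocyte table Reln was the only one of the 10 genes that passed the filter. It was at 5.42, 5.49 and 5.61 FPKM in the libraries labelled Pri-Hep, at 5.82, 5.53 and 5.47 FPKM in Hep-Orgs P1, at 5.44, 5.72 and 5.75 FPKM at P5 and at 5.37, 5.78 and 5.21 FPKM at P10. These ranges overlap. Reln differed by 0.01 (SE 0.0341, limma adjusted p 0.949) between the 9 Hep-Orgs and the 3 libraries labelled Pri-Hep, and by -0.03 (SE 0.0417, adjusted p 0.847) between P10 and P1. Of all 10986 genes tested, 0% passed in either comparison by limma, with 966 and 986 genes at an unadjusted p under 0.05. By limma-voom on the recovered fragments 12 and 29 genes passed, and Reln was not among them. The other 9 genes stayed under 1 FPKM in all 12 libraries, with Tagln (at most 0.573 FPKM) and Lum (at most 0.685 FPKM) the highest. Per main transcript length Dcn would hold 0.874 to 1.58 FPKM, above Lum (0.204 to 0.685 FPKM) and Tagln (0.164 to 0.714 FPKM). This ranking therefore depends on the gene length used.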

How the data were processed

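The authors deposited 3 tables of FPKM, 1 each for hepatocyte, cholangiocyte and Smart-Seq libraries. Per the labels, the submitters' processing notes name featureCounts 2.0.3, edgeR 3.40.2 and mm10; the aligner is not given in the sources used here. The tables were never fitted together. The 10 genes and all further lists were chosen with earlier results of these data known. In every comparison all 10 genes were described; of each further list, the 2 genes highest on average in the Smart-Seq libraries and up to 2 genes with the largest changes in a cholangiocyte comparison could be named, and others named are said to be chosen after their values were seen or serve as markers. A gene of 1 further list is not reported here by name.

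In the hepatocyte table FPKM times gene length gave whole fragments in 100% of values (tolerance 0.05 fragments). Totals of the other tables were estimated from low values of genes with 1 transcript in GENCODE M21, whose gene positions on GRCm38 are used here, and are approximate. A value of 3 fragments was taken as the floor. Intervals and floors cover counting error only.

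Values were tested as log2(FPKM + 1) with limma 3.58.1 in R 4.3.3 (lmFit, eBayes with trend, two-sided, all groups of a table, Benjamini-Hochberg threshold 0.05) on genes with at least 1 FPKM in at least 3 libraries, and the code was tested on simulated data. The methods state independent cultures as replicates, while other text of the study speaks of 3 mice. Same-numbered libraries of different groups deviated together no more than others (median correlation -0.0063 against -0.0030 in Cho-Orgs, -0.0016 against -0.0018 in the hepatocyte table), so no block was used in the main test. Figures were drawn with matplotlib 3.10.9.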

Additional observations from a re-analysis of the deposited data

How the results depend on the processing

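Of the members called in Cho-Orgs, counts changed mainly with the filter, through the number of members tested. With all genes above 0 FPKM, 9 members were tested. Of these, 5 were called from P0 to P5 and 5 from P0 to P10, Dcn and Pdgfrb being added to the 3. Of all 22670 genes then tested by limma, 4437 rose and 3147 fell from P0 to P5. From P0 to P10, 5382 rose and 4695 fell. Dcn was at 0 in all libraries of P5 and P10, so it could only fall and its call is no support. With a mean FPKM of at least 5 only Reln was tested, and 1 was called in each of the 3 comparisons. Leaving out 1 replicate number in turn gave 1 to 2 calls from P5 to P10, 3 to 3 in the other 2 comparisons and 0 to 0 in the hepatocyte table. Median-ratio size factors changed the split of all genes from P0 to P5 from 3938 higher and 2621 lower to 3087 and 3449, and left the members' directions as they were. The replicate block gave 3, 2 and 3 calls in Cho-Orgs and 0 in both hepatocyte comparisons, so it changed no call of a member. Reln in Hep-Orgs against Pri-Hep changed sign without replicate 2, with values from -0.00239 to 0.0331 when 1 replicate number was left out, against 0.0118 with all.

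Among the untested comparisons, a pseudocount of 0.1 added Acta2 as 1 gene past the fold between intermediate and round-like Hep-Orgs (-1.02). It also put Pdgfrb past the difference from the bulk libraries, as 5 genes of 10. Of all 16695 symbols, 502 then passed, against 220 in the main setting. Against the hepatocyte table alone, an alternative chosen after seeing the data, as was leaving out Cho-Orgs P0, 5 of 10 genes passed. The count over all symbols rose to 753, so the larger member counts come with a larger background. In all, 63 alternative counts of members stayed within 1.5 times the main count and 7 did not. The 63 include every alternative of both hepatocyte comparisons. Those gave 0 calls throughout, mostly with Reln as the only member tested, so they say little about stability. Depth limits Acta2 and Des in the bulk libraries and Tagln in the morphological ones, which rest on few fragments. The same holds in the hepatocyte table for Rgs5 (at most 3 fragments), Tagln (5 to 16) and Lum (7 to 35).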
